A study of Homo sapiens with 9 samples.

Results

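The 56 cell cycle and replication genes followed here are a fixed list of genes that drive or mark S phase and G2/M, taken by symbol from a table of 58051 genes. All 56 were found, and 53 of them passed a filter on low counts. RNA was sequenced from A431 cells, an epidermoid carcinoma cell line that expresses an endogenous mutant p53, in 3 groups of 3 libraries. Parental (mutp53) cells were not edited, Ctrl (mutp53) cells are a stable line made with an empty CRISPR vector, and p53 KO cells are a stable line made with a construct against p53. The constructs of both edited lines also carry GFP, which parental cells lack. All cells were cultured in DMEM with serum, grown from single colonies and harvested after settling in plates, so a difference between lines and a difference between clones cannot be told apart. The sources used here do not say whether the 3 libraries of a group came from 1 colony or several, or from separate cultures, so the p-values measure only the spread between these libraries, which may be technical.

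Progress through the cell cycle is driven by cyclin-dependent kinases (CDKs), which are switched on by cyclins and CDC25 phosphatases and held back by CDK inhibitors. E2F factors turn on the genes for origin licensing, deoxynucleotide synthesis and the replication fork at the start of S phase, and FOXM1 and B-MYB (MYBL2) turn on the mitotic genes in G2. Many of these genes are read as proliferation markers, since their RNA is low in resting cells. Wild-type p53 lowers them through the CDK inhibitor p21 (CDKN1A), and mutant p53 has been linked to their transcription.

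The libraries held 19783778 to 29840452 gene counts each, and the 56 genes took 1.225 to 1.267% of them. The epithelial genes KRT5, EGFR, CDH1, DSP and TP63 were expressed in all 9 libraries, whereas the keratin KRT14 had 0 to 13 counts per library, with 7 to 13 in p53 KO cells. Among markers of other cell types, the blood cell gene PTPRC was at 0 and CD74 had 11, 2 and 7 counts in p53 KO cells, 3 in Ctrl 2 and 0 elsewhere. The endothelial genes PECAM1 and CDH5 and the fibroblast genes PDGFRB and COL1A2 had at most 13 counts, and COL1A1 had 47 to 114 counts in every library. The part of such cells in the results was not tested. The library Ctrl 1 stood apart from the other 8. Its reads on transcripts over 5 kb were low against those on transcripts under 1.5 kb, with a long minus short difference of -0.705 in log2 CPM (counts scaled to the normalised library size) relative to the mean of all libraries. The same difference was -0.289 in p53 KO 3, between -0.00175 and 0.128 in the other 4 edited libraries, and between 0.199 and 0.333 in the parental libraries. Counts of calls, and several of the genes in which Ctrl 1 was far from the other Ctrl libraries, are therefore also given without it.

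**Figure D1:**
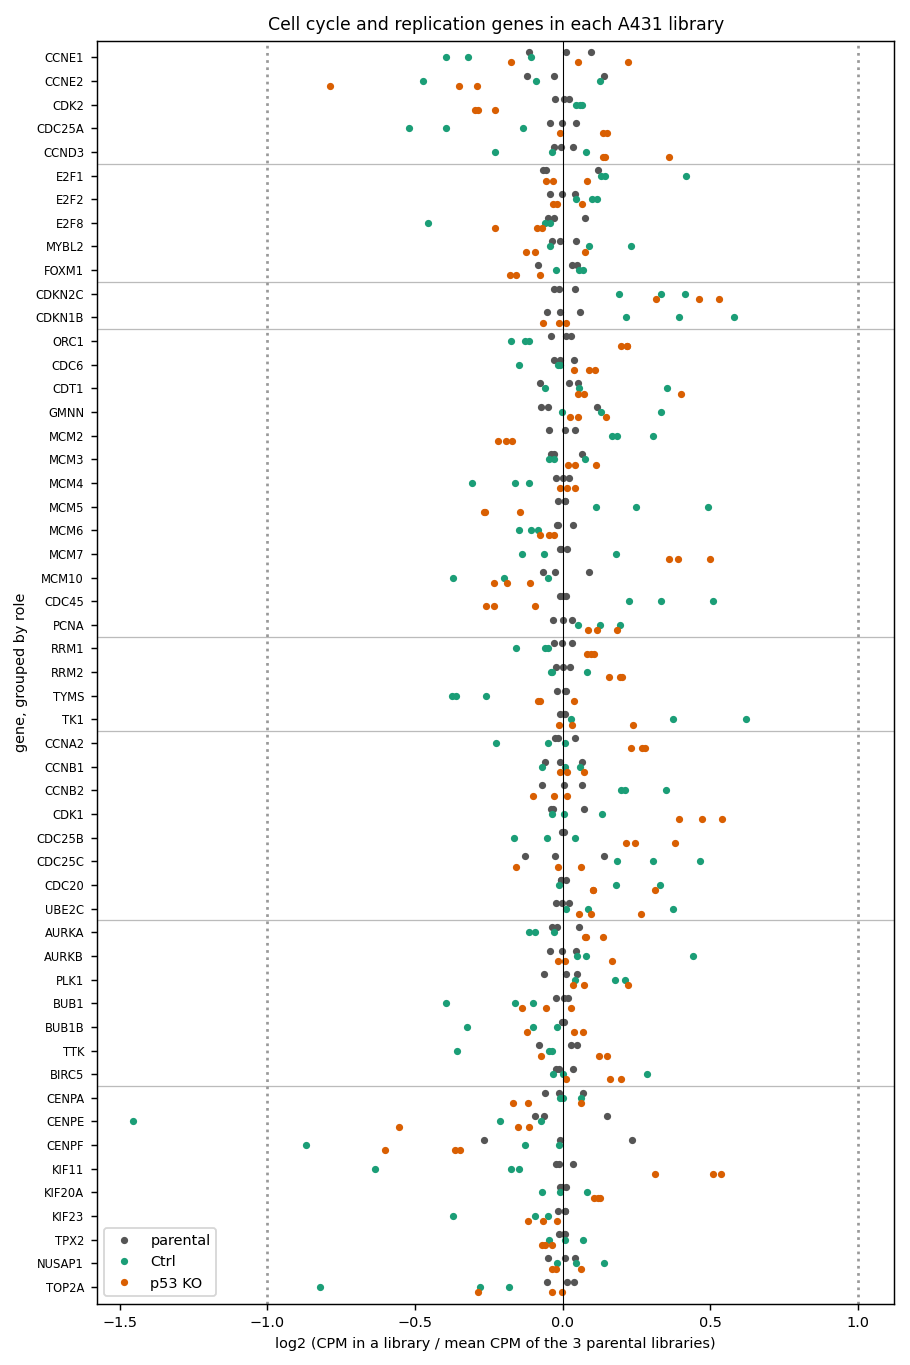
Level of each of the 53 genes tested in each library, as the log2 ratio of its CPM to the mean of the 3 parental libraries, with genes on the vertical axis grouped by role and 1 point per library. Nearly all points lie between the dotted lines at a 2-fold difference; the CENPE point of Ctrl 1 lies outside, and CDK1, MCM7 and KIF11 of p53 KO cells sit to the right of both controls.

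In parental cells, the levels of the genes spanned a wide range. Per kilobase of transcript, PCNA, the sliding clamp of the replication fork, was highest with 371 ± 8.26 CPM per kb (SD, n = 3), followed by CDC20, an activator of the anaphase-promoting complex, with 254 ± 1.82 CPM per kb and MCM7, a subunit of the replicative helicase, with 245 ± 1.94 CPM per kb. CDC20 and MCM7 differed by more than their SDs. The E-type cyclins that start S phase were lowest among the genes tested, with 4.73 ± 0.343 CPM per kb for CCNE1 and 5.95 ± 0.55 CPM per kb for CCNE2. The cyclin CCNB1 of the mitotic kinase had 179.5 ± 7.96 CPM per kb, above its kinase CDK1 with 74.1 ± 3.32 CPM per kb.

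The first question was whether loss of mutant p53 changed these genes against either control. Against parental cells, 7 of the 53 genes tested were higher and 1 was lower in p53 KO cells at an adjusted p of at most 0.05 in edgeR's quasi-likelihood test, beside 9.77% of all 14513 genes tested that were higher and 8.36% that were lower. Higher were CDK1, KIF11, CDKN2C, MCM7, CDC25B, CCNA2 and ORC1, and CDK2 was lower. Against Ctrl cells, 12 genes were higher and 7 were lower, beside 15% and 14.2% of all genes. Higher were KIF11, CDC25A, CDK1, MCM7, ORC1, CCNA2, CDC25B, TYMS, CCND3, MCM4, RRM1 and RRM2. Lower were CDC45, MCM5, CDKN1B, MCM2, CDC25C, CDK2 and CCNB2. In these bulk libraries, a changed share of cycling cells and a changed amount of RNA per cell cannot be told apart. The share of the 53 genes called was 13.2% higher and 1.89% lower against parental, and 22.6% higher and 13.2% lower against Ctrl cells.

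The size of these changes was small. None of the 53 genes changed at least 2-fold in edgeR's test, in any of the 3 comparisons, beside 3.63% of all genes in p53 KO against parental, 6.5% in p53 KO against Ctrl and 4.18% in Ctrl against parental. The count was also 0 at an unadjusted p under 0.05 and 0 by DESeq2's Wald test. The 95% interval of the fold change lay within 2-fold for 53 of 53 genes against parental cells and for 52 of 53 against Ctrl cells, where KIF11 reached 1.02 on the log2 scale. The median log2 fold change of the 53 genes was 0.027 against parental and 0.046 against Ctrl cells, beside 0.006 for all genes tested in each.

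**Figure D2:**
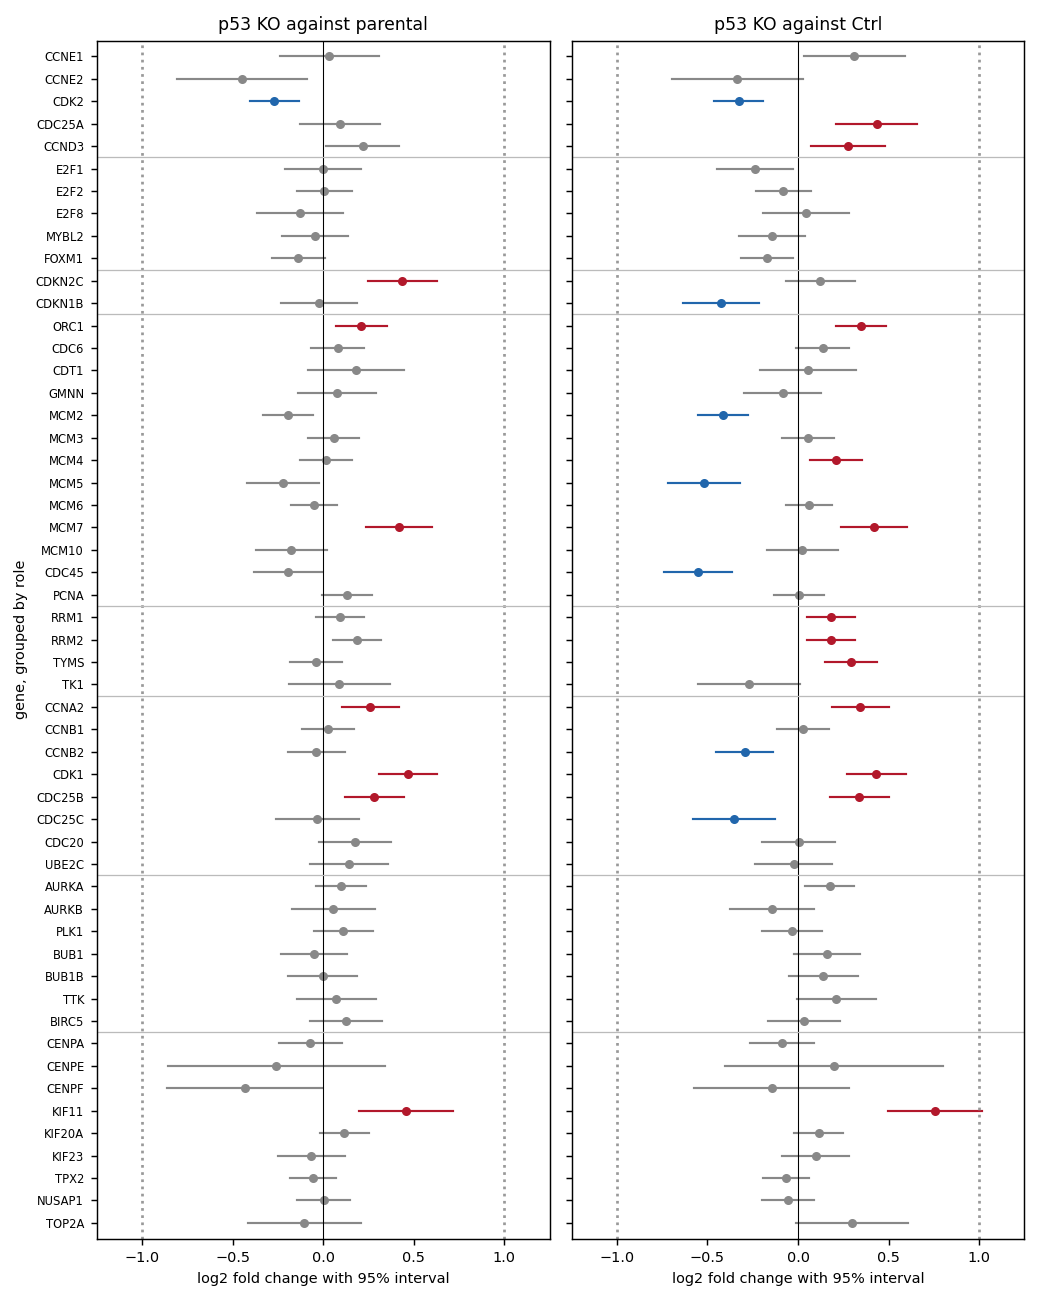
Log2 fold change of each gene in p53 KO cells against parental cells (left) and against Ctrl cells (right), with its 95% interval as a line. Red points are higher and blue points lower at an adjusted p of at most 0.05, grey points did not pass, and dotted lines mark a 2-fold change; against parental cells 7 genes are red and 1 is blue, and against Ctrl cells 12 are red and 7 are blue.

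Against both controls, 6 genes were higher (CDK1, KIF11, MCM7, CDC25B, CCNA2 and ORC1) and CDK2 was lower, beside 6.46% and 5.25% of all genes. Both comparisons share the p53 KO libraries. The genes are described here in turn, with positions in GRCh38 from GENCODE 44.

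CDK1 (ENSG00000170312, chr10:60778331-60794852), the kinase that drives entry into mitosis, had 137, 136 and 147 CPM in parental, 137, 154 and 140.3 CPM in Ctrl and 203, 184 and 194 CPM in p53 KO cells. All 3 p53 KO libraries were above all 6 control libraries. Its log2 fold change was 0.47 (SE 0.073, adjusted p = 0.00133) against parental and 0.43 (SE 0.073, adjusted p = 0.0011) against Ctrl cells. MCM7 (ENSG00000166508, chr7:100092233-100101940) had 602, 600.1 and 609 CPM in parental cells, 683, 577 and 549 CPM in Ctrl cells and 775, 792 and 854 CPM in p53 KO cells. Again the p53 KO libraries did not overlap with either control, although Ctrl 1 was higher than the other Ctrl libraries. The log2 fold change was 0.42 (SE 0.083, adjusted p = 0.00541) and 0.42 (SE 0.083, adjusted p = 0.00307). 

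KIF11 (ENSG00000138160, chr10:92574105-92655395), the kinesin that separates the spindle poles, had 244, 245 and 254 CPM in parental, 159, 219 and 223 CPM in Ctrl and 359, 352 and 307 CPM in p53 KO cells. Its p53 KO libraries were above both controls, with a log2 fold change of 0.46 (SE 0.12, adjusted p = 0.0214) against parental and 0.76 (SE 0.12, adjusted p = 0.000654) against Ctrl cells. The transcript is 5016 bases long and was lowest in Ctrl 1, the library that was low on long transcripts. CCNA2 (ENSG00000145386, chr4:121816444-121823883), the cyclin of S phase and G2, had 191, 192 and 201 CPM, 166, 196 and 188 CPM and 236, 228 and 235 CPM in parental, Ctrl and p53 KO cells. The lowest p53 KO library was above the highest control library. The log2 fold change was 0.26 (SE 0.072, adjusted p = 0.0291) against parental and 0.34 (SE 0.072, adjusted p = 0.00397) against Ctrl cells.

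CDC25B (ENSG00000101224, chr20:3786772-3806121), a phosphatase that activates CDK1, had 144, 144 and 143 CPM in parental cells, 148, 139 and 128 CPM in Ctrl cells and 170.4, 167 and 187 CPM in p53 KO cells. The p53 KO libraries were the 3 highest of the 9. The log2 fold change was 0.28 (SE 0.074, adjusted p = 0.0234) against parental and 0.34 (SE 0.074, adjusted p = 0.00556) against Ctrl cells. ORC1 (ENSG00000085840, chr1:52372829-52404423), the largest subunit of the origin recognition complex, had 72, 68.7 and 71 CPM, 62.5, 65.3 and 64.6 CPM and 80.8, 82 and 82.2 CPM in the same order of groups. Its p53 KO libraries lay close together and above both controls. The log2 fold change was 0.21 (SE 0.063, adjusted p = 0.0403) and 0.35 (SE 0.063, adjusted p = 0.0017).

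CDK2 (ENSG00000123374, chr12:55966781-55972789), the kinase partner of the E-type and A-type cyclins, had 106, 108 and 109.5 CPM in parental cells and 111, 112 and 113 CPM in Ctrl cells. In p53 KO cells it had 92, 88.3 and 87.7 CPM, below all 6 control libraries. The log2 fold change was -0.27 (SE 0.061, adjusted p = 0.0106) against parental and -0.33 (SE 0.061, adjusted p = 0.00215) against Ctrl cells.

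Each call was tried in 16 other settings, which changed the tool, scaling, filter or fit or left out 1 library. Against parental cells 3 of the 8 calls (CDK1, MCM7 and CDKN2C) were kept in every one. The ORC1 call was lost in 10 of the 16 settings, with an adjusted p of up to 0.209, the CCNA2 call in 7, CDC25B in 6, KIF11 in 5 and CDK2 in 4. Against Ctrl cells 13 of the 19 calls were kept in every setting, among them all 7 of the genes above. Those lost were RRM1 in 12 settings, RRM2 and CCND3 in 11 each, MCM4 in 8, CDC25C in 4 and CCNB2 in 1.

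The counts also depended on single libraries. The 7 genes higher against parental cells became 3 without parental 1, 2 or 3 or p53 KO 1, and 4 without p53 KO 2 or p53 KO 3. The 1 gene lower became 0 without parental 3 or p53 KO 2, 2 without Ctrl 3 and 7 without Ctrl 1. The 6 genes higher against both controls became 2 without parental 1, 2 or 3 or p53 KO 1 and 3 without p53 KO 2 or p53 KO 3, and the 1 gene lower became 0 without parental 3 or p53 KO 2, 2 without Ctrl 3 and 6 without Ctrl 1. Without Ctrl 1 each of the 7 genes was still called against both controls, and CCND3 and RRM2 joined those higher and CCNE2, MCM2, MCM5, CDC45 and CENPF those lower. With Ctrl 1 left out, 9 genes were higher against parental cells, and 14 were higher and 9 lower against Ctrl cells.

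**Figure D3:**
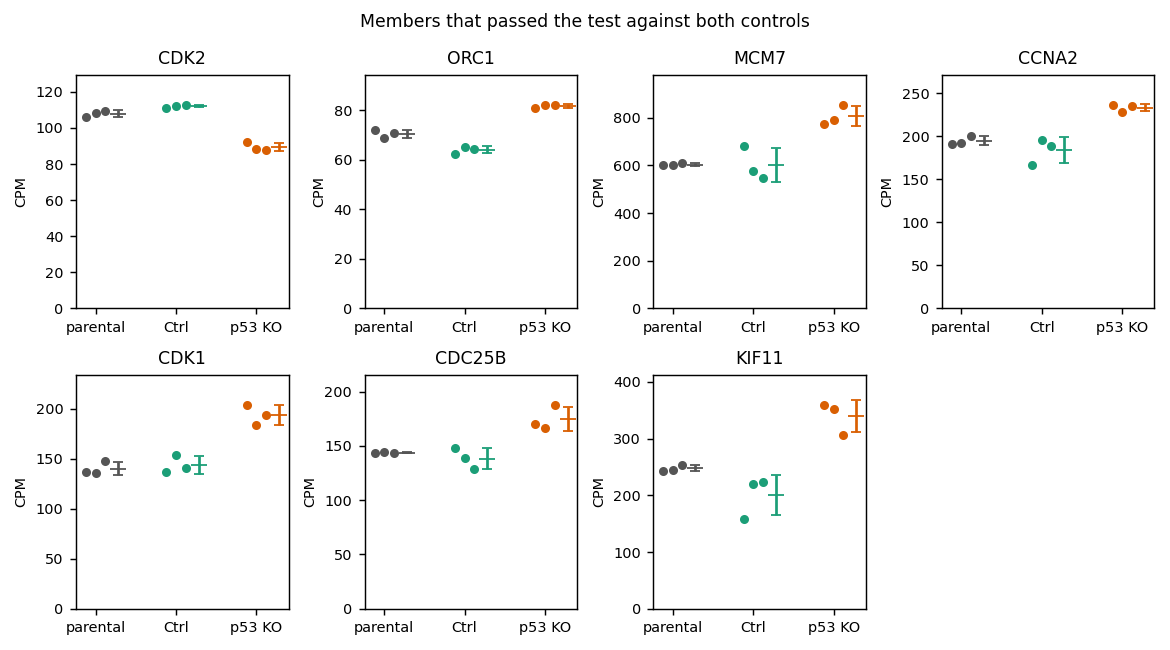
CPM of the 7 genes that passed the test against both parental and Ctrl cells, with 1 point per library and the mean ± SD of 3 libraries beside the points; all vertical axes start at 0. For CDK2 the p53 KO points lie below every control point, and for the other 6 genes they lie above every control point.

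Promoters of 5 of the 6 genes higher against both controls are shown with sequence elements known from cell cycle genes. The 6 genes are grouped only because they passed the same tests, and CDC25B, which held none of these elements, is not shown. The promoter table of RefSeq (GRCh38.p14) holds the 250 bases before and 50 bases after the start of 44 of the 56 genes, and CDK2 is among the 12 genes not matched. Where a gene has several starts, the first one listed was used. Searched on both strands were the E2F element (TTTCCCGC, TTTGGCGC, TTTCGCGC or TTTGCCGC), the CHR element bound by repressor and activator complexes of G2 genes (TTTGAA or TTCGAA), and the CCAAT box (CCAAT). Capitals mark these matches, on either strand, and adjoining matches run together.
CDK1 (chr10:60778081-60778380, + strand): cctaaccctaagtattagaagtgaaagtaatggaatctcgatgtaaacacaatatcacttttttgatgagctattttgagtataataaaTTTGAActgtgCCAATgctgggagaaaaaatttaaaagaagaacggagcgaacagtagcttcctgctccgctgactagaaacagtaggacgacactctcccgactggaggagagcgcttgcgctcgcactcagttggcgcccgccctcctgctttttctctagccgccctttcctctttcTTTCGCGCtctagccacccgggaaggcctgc
KIF11 (chr10:92592880-92593179, + strand): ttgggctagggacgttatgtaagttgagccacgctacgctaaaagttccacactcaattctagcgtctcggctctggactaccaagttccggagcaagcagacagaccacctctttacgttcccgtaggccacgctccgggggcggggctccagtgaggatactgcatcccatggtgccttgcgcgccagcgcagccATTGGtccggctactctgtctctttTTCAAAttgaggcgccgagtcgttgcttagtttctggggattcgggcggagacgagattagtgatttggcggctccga
MCM7 (chr7:100101348-100101647, - strand): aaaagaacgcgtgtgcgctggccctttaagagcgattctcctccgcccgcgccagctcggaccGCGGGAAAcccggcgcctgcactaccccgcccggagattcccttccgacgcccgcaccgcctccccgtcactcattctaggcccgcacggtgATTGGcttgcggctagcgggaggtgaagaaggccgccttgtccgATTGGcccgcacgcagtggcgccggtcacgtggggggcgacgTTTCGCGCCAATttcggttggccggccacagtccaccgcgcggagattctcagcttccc
CCNA2 (chr4:121823834-121824133, - strand): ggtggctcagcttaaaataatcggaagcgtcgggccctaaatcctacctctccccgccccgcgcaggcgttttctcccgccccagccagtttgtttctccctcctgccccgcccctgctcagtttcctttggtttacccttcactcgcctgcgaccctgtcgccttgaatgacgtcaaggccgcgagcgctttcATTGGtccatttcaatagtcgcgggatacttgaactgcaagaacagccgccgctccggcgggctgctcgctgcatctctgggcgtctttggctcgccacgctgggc
ORC1 (chr1:52404374-52404673, - strand): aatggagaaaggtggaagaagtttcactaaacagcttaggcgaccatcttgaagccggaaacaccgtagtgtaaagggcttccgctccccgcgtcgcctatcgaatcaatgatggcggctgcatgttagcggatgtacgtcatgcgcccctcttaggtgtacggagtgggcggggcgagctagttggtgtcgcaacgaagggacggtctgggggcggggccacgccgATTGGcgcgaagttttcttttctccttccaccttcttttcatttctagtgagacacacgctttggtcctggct
CCNB1 (chr5:69166900-69167199, + strand): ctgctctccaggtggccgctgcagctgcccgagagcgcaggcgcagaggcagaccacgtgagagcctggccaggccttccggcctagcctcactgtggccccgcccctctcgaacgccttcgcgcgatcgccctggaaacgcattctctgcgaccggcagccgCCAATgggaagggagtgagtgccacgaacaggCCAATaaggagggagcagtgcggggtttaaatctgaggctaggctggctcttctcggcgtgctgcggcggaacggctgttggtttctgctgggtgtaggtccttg

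The CDK1 window held a CHR element, a CCAAT box and an E2F element, and KIF11 held a CCAAT box and a CHR element. MCM7 held 2 E2F elements and 3 CCAAT boxes, 1 of which overlaps an E2F element. CCNA2 and ORC1 held 1 CCAAT box each, and CDC25B held none of the 3 elements. CCNB1, shown beside them because its RNA did not pass the test in any comparison, held 2 CCAAT boxes. Among all 44 matched genes, the E2F element was in 8 of 15 S phase genes (53.3%) and in 3 of 19 G2/M genes (15.8%), beside 3.31% of the 35116 promoters in the table. The CHR element was in 12 of 19 G2/M genes (63.2%) and in 2 of 15 S phase genes (13.3%), beside 16.4% of all promoters. The CCAAT box was in 15 of 19 G2/M genes (78.9%) and 10 of 15 S phase genes (66.7%), beside 34.6% of all. With the CHR element cut to its 5 letters TTGAA, the shares were 73.7% of G2/M genes, 26.7% of S phase genes and 33.7% of all promoters. The windows of CCNA2 and ORC1 held these 5 letters, which are not in capitals above. A match is a description of these letters, not evidence of binding.

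Among the cyclins and activators of G1/S, 5 of 6 genes were tested. CDK2 fell against both controls, and 2 genes, CDC25A and CCND3, rose against Ctrl cells. CDC25A, the phosphatase that activates CDK2, had 44.1, 41.5 and 42.6 CPM in parental, 32.5, 29.8 and 38.9 CPM in Ctrl and 42.5, 47 and 47.4 CPM in p53 KO cells. The Ctrl libraries were the lowest of the 3 groups, and parental and p53 KO libraries overlapped. Its log2 fold change was 0.43 (SE 0.10, adjusted p = 0.00773) against Ctrl and 0.09 (SE 0.10, adjusted p = 0.565) against parental cells. CCND3, a D-type cyclin that starts G1 progression, had 116, 121 and 118 CPM, 125, 115 and 101 CPM and 131, 130 and 152 CPM in parental, Ctrl and p53 KO cells. The p53 KO libraries were above all control libraries, among which Ctrl 1 was highest. The change on the log2 scale was 0.28 (SE 0.092, adjusted p = 0.044) against Ctrl cells and 0.22 (SE 0.092, adjusted p = 0.13) against parental cells. CCND2, another D-type cyclin, had 0 counts in all 9 libraries, which allows up to 0.101 CPM in the deepest and 0.153 CPM in the shallowest library by a floor of 3 counts for counting error alone.

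The E-type cyclins did not pass the test as described. CCNE1 had 9.87, 9.31 and 8.54 CPM in parental, 8.57, 7.03 and 7.4 CPM in Ctrl and 8.19, 9.58 and 10.8 CPM in p53 KO cells, and CCNE2 had 14.7, 15.6 and 17.5 CPM, 11.5, 15 and 17.4 CPM and 12.5, 13 and 9.23 CPM. The CCNE2 libraries of p53 KO cells lay below the parental ones and overlapped with the Ctrl ones. Its log2 fold change was -0.45 (SE 0.16, adjusted p = 0.0811) against parental cells and -0.34 (SE 0.16, adjusted p = 0.151) against Ctrl cells. CCNE2 passed the test in both comparisons without Ctrl 1, and with Ctrl 1 and p53 KO 3 left out. Against parental cells it also passed by DESeq2, without the filter, with only the compared groups and with the length trend removed. For CCNE1 the change was 0.03 (SE 0.12, adjusted p = 0.883) against parental and 0.31 (SE 0.13, adjusted p = 0.0878) against Ctrl cells. Without Ctrl 1 CCNE1 passed against Ctrl cells, with 0.39 (SE 0.13, adjusted p = 0.0277). It also passed there without p53 KO 1 and with the length trend removed.

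Of the 5 transcription factors, none passed the test as described in any of the 3 comparisons in edgeR, and none passed in DESeq2. Against Ctrl cells, FOXM1 passed with library totals in place of TMM, and FOXM1 and E2F1 passed with the length trend removed. At an unadjusted p under 0.05 there were 0 against parental cells, 2 against Ctrl cells and 1 between the controls. E2F1, which starts the S phase programme, had 49.4, 55.9 and 49.1 CPM in parental, 68.7, 56.8 and 56.3 CPM in Ctrl and 49.5, 50.4 and 54.4 CPM in p53 KO cells. The parental and p53 KO libraries overlapped, and the Ctrl libraries were above both. Against parental cells the 95% interval of its log2 fold change was -0.21 to 0.21, and against Ctrl cells the change was -0.24 (SE 0.10, adjusted p = 0.0887). For FOXM1 and MYBL2 the intervals against parental cells were -0.28 to 0.01 and -0.23 to 0.14, and for E2F2 and the repressor E2F8 they were -0.15 to 0.16 and -0.36 to 0.11.

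The 17 genes of replication and deoxynucleotide synthesis moved in both directions. In the test as described, 2 rose against parental cells (MCM7 and ORC1) and none fell, which is 11.8% and 0%, beside 9.77% and 8.36% of all genes. Against Ctrl cells 6 rose and 3 fell, which is 35.3% and 17.6%, beside 15% and 14.2%. The fallen genes were CDC45, MCM5 and MCM2, and the risen ones were MCM7, ORC1, MCM4, TYMS, RRM1 and RRM2. At an unadjusted p under 0.05 the number past it was 6 against parental cells in either direction. DESeq2 called 4, with MCM7, ORC1 and RRM2 higher and MCM2 lower. Without Ctrl 1, edgeR also called MCM2, MCM5, CDC45 and MCM10 lower against parental cells (adjusted p = 0.0078, 0.00709, 0.0254 and 0.0494). RRM2 was called higher in the same setting (adjusted p = 0.0131).

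The subunits of the MCM2 to MCM7 helicase, which unwinds DNA as one ring of 6 different proteins, did not move together. MCM2 had 574, 560.4 and 540.1 CPM in parental cells, 689, 634 and 626 CPM in Ctrl cells and 479, 488 and 496 CPM in p53 KO cells, so that the groups did not overlap and Ctrl cells were highest. Its log2 fold change was -0.41 (SE 0.063, adjusted p = 0.000538) against Ctrl and -0.19 (SE 0.062, adjusted p = 0.0529) against parental cells. MCM2 passed against parental cells by DESeq2, with DESeq2 size factors, library totals or only the compared groups, and without Ctrl 1 or Ctrl 3. MCM5 had 427, 426 and 419 CPM, 597, 504 and 459 CPM and 352, 354 and 384 CPM in parental, Ctrl and p53 KO cells. The order of the groups was the same as for MCM2, with a log2 fold change of -0.52 (SE 0.09, adjusted p = 0.00137) against Ctrl and -0.22 (SE 0.09, adjusted p = 0.114) against parental cells. Without Ctrl 1 the changes of MCM5 in edgeR were -0.41 (adjusted p = 0.000134) and -0.22 (adjusted p = 0.00709). MCM4 had 634, 627 and 616 CPM, 506, 579 and 559 CPM and 622, 645 and 632 CPM, with the Ctrl libraries lowest, and a log2 fold change of 0.21 (SE 0.065, adjusted p = 0.0332) against Ctrl and 0.02 against parental cells. MCM3 and MCM6 did not pass the test, with 95% intervals of -0.09 to 0.20 and -0.07 to 0.19 against Ctrl cells. The 6 subunits thus spanned log2 fold changes of -0.52 to 0.42 against Ctrl cells, and -0.22 to 0.42 against parental cells.

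CDC45, which joins the MCM ring to form the active helicase, had 71.1, 72.1 and 71.6 CPM in parental cells, 102, 90.2 and 83.6 CPM in Ctrl cells and 59.8, 60.9 and 67 CPM in p53 KO cells. The groups did not overlap, and Ctrl 1 was the highest library. This was a log2 fold change of -0.55 (SE 0.085, adjusted p = 0.000594) against Ctrl and -0.19 (SE 0.085, adjusted p = 0.142) against parental cells. The loading factors CDC6 and CDT1 and the CDT1 inhibitor GMNN did not pass the test in either comparison, nor did MCM10 in the test as described. Against parental cells MCM10 passed with only the compared groups in the fit. It also passed there without Ctrl 1 (log2 fold change -0.18, adjusted p = 0.0494 in edgeR). PCNA had 463, 474 and 484 CPM in parental, 542, 517 and 491 CPM in Ctrl and 514, 502 and 538 CPM in p53 KO cells, with 95% intervals of -0.01 to 0.27 against parental and -0.13 to 0.14 against Ctrl cells.

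Of the 4 genes of deoxynucleotide synthesis, 3 rose against Ctrl cells and none passed the test as described against parental cells in edgeR. There 1 was past an unadjusted p of 0.05 and 1 (RRM2) was called by DESeq2. RRM2, the regulated subunit of ribonucleotide reductase, had 634, 645 and 655 CPM in parental, 627, 682 and 628 CPM in Ctrl and 742, 719 and 738 CPM in p53 KO cells. Its p53 KO libraries were above all control libraries, with a log2 fold change of 0.18 (SE 0.06, adjusted p = 0.0552) against parental and 0.18 (SE 0.06, adjusted p = 0.0414) against Ctrl cells. TYMS, thymidylate synthase, had 185, 188 and 189 CPM, 156, 146 and 144 CPM and 178, 177 and 192 CPM in parental, Ctrl and p53 KO cells. The Ctrl libraries were lowest, and the change was 0.29 (SE 0.065, adjusted p = 0.00616) against Ctrl and -0.04 (SE 0.065, adjusted p = 0.714) against parental cells. RRM1, the other subunit of ribonucleotide reductase, had a log2 fold change of 0.18 (SE 0.06, adjusted p = 0.0402) against Ctrl cells. Thymidine kinase TK1 had 239, 201 and 158 CPM in Ctrl cells, highest in Ctrl 1, and did not pass the test, nor did it against Ctrl cells without Ctrl 1 (log2 fold change -0.12, adjusted p = 0.332). TK1 did pass against Ctrl cells without the filter and without Ctrl 3, and between the controls in the same settings and by DESeq2.

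In the test as described, the 24 genes of G2/M and mitosis had 4 that rose against parental cells (CDK1, KIF11, CDC25B and CCNA2) and none that fell. This is 16.7% and 0%, beside 9.77% and 8.36% of all genes. Against Ctrl cells the same 4 genes rose, and CCNB2 and CDC25C fell, which is 16.7% and 8.33%, beside 15% and 14.2%. CCNB1 had 349, 362 and 381 CPM in parental cells, 379, 366 and 347 CPM in Ctrl cells and 368, 362 and 383 CPM in p53 KO cells, and all 3 groups overlapped. The 95% interval of its log2 fold change was -0.12 to 0.17 against parental and -0.12 to 0.17 against Ctrl cells. CCNB2, the other B-type cyclin, had 149, 157 and 164 CPM, 199.6, 181 and 179.6 CPM and 158, 146 and 153 CPM, with the Ctrl libraries above those of both other groups. Its log2 fold change was -0.29 (SE 0.071, adjusted p = 0.00943) against Ctrl and -0.04 (SE 0.071, adjusted p = 0.75) against parental cells. CDC25C, a phosphatase for CDK1 in mitosis, had 28.2, 30.2 and 33.9 CPM, 42.5, 38.1 and 35 CPM and 32.1, 27.6 and 30.5 CPM in the same order. The Ctrl libraries were highest, and parental and p53 KO libraries overlapped. The change on the log2 scale was -0.35 (SE 0.10, adjusted p = 0.0234) against Ctrl and -0.03 (SE 0.10, adjusted p = 0.86) against parental cells.

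The 3 CDC25 phosphatases thus differed in direction against Ctrl cells, with CDC25A and CDC25B higher and CDC25C lower. CDC20 and the ubiquitin-conjugating enzyme UBE2C, which act in the destruction of cyclin B, did not pass the test as described in any comparison. CDC20 did pass against parental cells with only the compared groups in the fit, and between the controls without Ctrl 3. Of the 7 mitotic kinases and checkpoint genes, AURKA, AURKB, PLK1, BUB1, BUB1B, TTK and the survivin gene BIRC5, none passed the test as described in edgeR in any comparison. At an unadjusted p under 0.05 there were 0 of these against parental cells, 1 against Ctrl cells and 1 between the controls, and DESeq2 called 0, 1 (AURKA) and 0. AURKA also passed against Ctrl cells without Ctrl 1, with a log2 fold change of 0.20 (SE 0.059, adjusted p = 0.0154) in edgeR. With the length trend removed AURKA passed against Ctrl cells and between the controls. AURKA and TTK passed against Ctrl cells with Ctrl 1 and p53 KO 3 left out. PLK1 had 369, 342 and 359.9 CPM in parental, 412, 404 and 367 CPM in Ctrl and 375, 365 and 416 CPM in p53 KO cells, with a 95% interval of -0.05 to 0.27 against parental and -0.20 to 0.13 against Ctrl cells.

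Among the 9 genes of the spindle, centromere and chromosome, KIF11 rose in both comparisons and the other 8 did not pass the test. TOP2A, the topoisomerase that untangles chromosomes, had 576, 549 and 584 CPM in parental, 322, 469 and 502 CPM in Ctrl and 568, 555 and 466 CPM in p53 KO cells. Ctrl 1 was the lowest of the 9 libraries and p53 KO 3 the lowest of its group. In edgeR's test this gave a log2 fold change of -0.10 (SE 0.14, adjusted p = 0.653) against parental and 0.30 (SE 0.14, adjusted p = 0.141) against Ctrl cells. CENPE and CENPF, kinetochore proteins with transcripts of 8541 and 10290 bases, showed the widest spread. CENPE had 134, 113 and 115 CPM in parental, 43.9, 104 and 114 CPM in Ctrl and 108, 111 and 82 CPM in p53 KO cells, and CENPF had 518, 366 and 437 CPM, 241, 403 and 437 CPM and 342, 346 and 289.9 CPM. Their 95% intervals against parental cells were -0.86 to 0.34 and -0.86 to -0.01. Without Ctrl 1, which also narrows the estimated spread, CENPF passed the test with log2 fold changes of -0.43 (SE 0.10, adjusted p = 0.00451) against parental and -0.37 (SE 0.11, adjusted p = 0.0202) against Ctrl cells. CENPE did not, with -0.26 (adjusted p = 0.0618) and -0.12 (adjusted p = 0.455), nor did TOP2A, with -0.10 (adjusted p = 0.276) and 0.13 (adjusted p = 0.237). TOP2A did pass against Ctrl cells without the filter, without Ctrl 3, with the length trend removed, and with Ctrl 1 and p53 KO 3 left out. Between the controls TOP2A passed in the same settings and by DESeq2. For KIF11 the changes without Ctrl 1 were 0.46 (adjusted p = 6.77e-05) and 0.62 (adjusted p = 9.49e-06).

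Transcript length moved with these values. In Ctrl 1, the 5 genes with transcripts over 5 kb had a median of -0.642 in log2 CPM relative to the mean of all libraries, and the 13 genes under 2 kb had 0.216. In p53 KO 3 the medians were -0.109 and 0.0991, and in p53 KO 2 they were 0.142 and -0.0448. An alternative added after the data were seen removed each library's trend with length. It gave 8 genes higher and 4 lower against parental cells and 15 higher and 9 lower against Ctrl cells, and the 7 genes called against both controls were all called again. Leaving out Ctrl 1 and p53 KO 3 together gave 8 higher and 6 lower against parental and 15 higher and 8 lower against Ctrl cells.

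**Figure D4:**
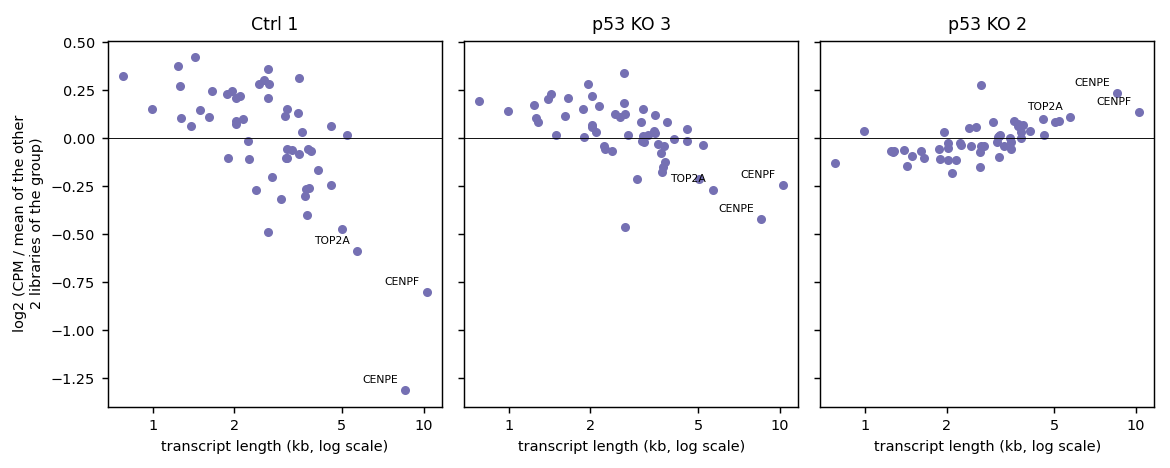
Deviation of each of the 53 genes in Ctrl 1, p53 KO 3 and, for comparison, p53 KO 2, as the log2 ratio of its CPM to the mean of the other 2 libraries of its group (vertical axis), against the length of its transcript in kb on a log axis. In Ctrl 1 the points fall with length, down to CENPF and CENPE, in p53 KO 3 they fall less, and in p53 KO 2 the long transcripts lie above 0.

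The CDK inhibitors differed from each other. CDKN2C (p18), an inhibitor of the G1 kinases CDK4 and CDK6, had 30.4, 30.1 and 31.6 CPM in parental cells, 40.9, 38.6 and 35 CPM in Ctrl cells and 38.2, 42.2 and 44.3 CPM in p53 KO cells. Both edited lines were above the parental libraries and overlapped with each other. This was a log2 fold change of 0.44 (SE 0.087, adjusted p = 0.00528) against parental and 0.12 (SE 0.086, adjusted p = 0.325) against Ctrl cells. CDKN1B (p27), an inhibitor of CDK2, had 33.7, 32.7 and 35.4 CPM, 39.4, 50.7 and 44.6 CPM and 33.7, 34.2 and 32.4 CPM in parental, Ctrl and p53 KO cells. Here the Ctrl libraries were highest, and the log2 fold change was -0.43 (SE 0.095, adjusted p = 0.00598) against Ctrl and -0.02 (SE 0.10, adjusted p = 0.9) against parental cells.

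CDKN2A (p16 and p14ARF) had 1 count in Ctrl 2 and 0 counts in the other 8 libraries, and CDKN2B (p15) had 0 counts in all 9. These lie at or under the floor of 3 counts, so no fold change is given. The loci are next to each other on chromosome 9, at chr9:21967752-21995301 and chr9:22002903-22009305. In the region around them, which was looked at after these values were seen, MTAP on one side had 1437 to 2667 counts per library, while CDKN2B-AS1 had 0 counts in every library and DMRTA1 on the other side had 0 to 2 counts. RNA counts do not tell a locus that is absent from one that is silent.

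The second question was how far the empty-vector line itself differed from parental cells. In Ctrl against parental cells 7 genes were higher (CDKN1B, CDC45, CDC25C, CDKN2C, MCM5, CCNB2 and MCM2) and 2 were lower (CDC25A and TYMS), beside 10.6% and 9.69% of all genes. CDKN1B had a log2 fold change of 0.40 (SE 0.095, adjusted p = 0.0141), CDC45 of 0.36 (SE 0.085, adjusted p = 0.0145) and TYMS of -0.33 (SE 0.065, adjusted p = 0.0059). These libraries also serve as the control of p53 KO cells, so the values of a gene in both comparisons are not independent. In p53 KO cells CDKN1B was at -0.43 against Ctrl and -0.02 against parental cells, CDC45 at -0.55 and -0.19, and TYMS at 0.29 and -0.04. None of these 3 passed the test as described in edgeR in p53 KO against parental cells. Without Ctrl 1, CDC45 passed it there, at -0.20 (adjusted p = 0.0254). The 7 genes higher became 0 without parental 1 or 2, 1 without parental 3 or Ctrl 2 and 4 without p53 KO 1 or 2, and the 2 genes lower became 1 without parental 1, 2 or 3, p53 KO 1 or 2 or Ctrl 2, and 5 without Ctrl 3. Without Ctrl 1 the numbers were 5 higher and 2 lower.

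Several of the changes were shared with neighbouring genes. For each gene, the median log2 fold change was taken over genes tested with a mean log2 CPM above 2 whose midpoint lay within 10 Mb on either side. CDK1 and KIF11 both lie on the long arm of chromosome 10. The 39 neighbours of CDK1 had a median of 0.45 against parental and 0.46 against Ctrl cells, beside 0.47 and 0.43 for CDK1 itself. The 111 neighbours of KIF11 had medians of 0.46 and 0.54, beside 0.46 and 0.76 for KIF11. Both genes thus rose by about as much against parental cells as the median gene around them. MCM7, on chromosome 7, had neighbours with medians of 0.21 and 0.28, below its own change against parental cells and within the 95% interval of its change against Ctrl cells.

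Genes lower against Ctrl cells on chromosomes 3 and 22 had neighbours that were also lower in that comparison. The neighbours of MCM2 had a median of -0.52 against Ctrl cells, those of MCM5 -0.38 and those of CDC45 -0.37, and in all 3 the median lay within the 95% interval of the gene's own change. Against parental cells these neighbour medians were -0.35, -0.16 and -0.09, and in Ctrl against parental cells 0.21, 0.21 and 0.26. The median against parental cells lay outside the interval of MCM2 and inside those of MCM5 and CDC45. The neighbours of MCM4, which rose against Ctrl cells, had a median of 0.30 in p53 KO against Ctrl cells. In contrast, neighbours had medians close to 0 for CCNA2 (-0.02 against parental and 0.02 against Ctrl cells), ORC1 (0.06 and -0.04), CDK2 (0.01 and -0.06) and CDC25B (0.10 and -0.02). Around CDKN2C the median was 0.06 against parental cells, around CDKN1B it was -0.04 against Ctrl cells, and around CDC25A it was 0.03.

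Over the 53 genes, the Pearson correlation between a gene's own log2 fold change and its neighbours' median was 0.628 against parental, 0.644 against Ctrl and 0.483 in Ctrl against parental cells, and Spearman's rho was 0.601, 0.414 and 0.449. This is a description, since the genes come from the same libraries and some share neighbours. The neighbours' median lay within the 95% interval of the gene's own change for 2 of the 8 genes called against parental cells, 9 of the 19 called against Ctrl cells and 4 of the 9 called between the controls. Some genes differed from their neighbours. MCM10, on the short arm of chromosome 10, was at 0.02 against Ctrl cells where its neighbours had a median of -0.35. MCM4 was at 0.02 against parental cells beside a median of 0.33. The part of chromosomal position in these changes was not tested.

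**Figure D5:**
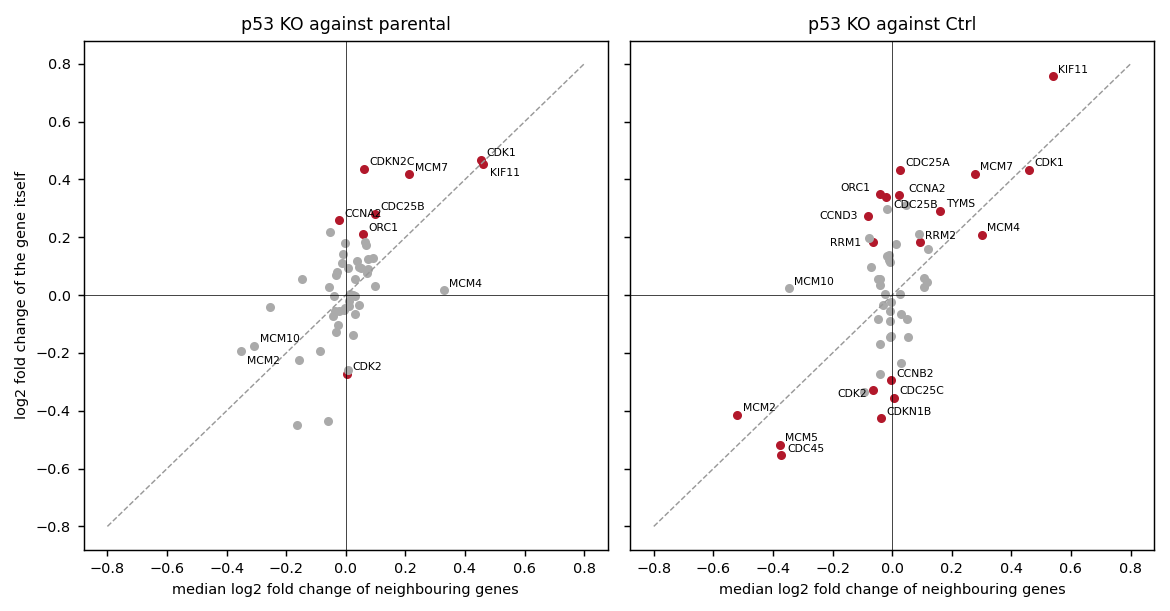
Log2 fold change of each of the 53 genes (vertical axis) against the median log2 fold change of the genes within 10 Mb of it (horizontal axis), for p53 KO against parental cells (left) and against Ctrl cells (right). Red points passed the test, grey points did not, and the dashed line marks equal change; CDK1 and KIF11 lie at the upper right on both sides, MCM2, MCM5 and CDC45 at the lower left on the right side, and CCNA2, ORC1 and CDK2 away from the line near a neighbour median of 0.

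Other genes of the same pathways were read from 3 further lists. Of 36 other replication genes, all tested, 4 rose and 2 fell against parental cells, and 8 rose and 2 fell against Ctrl cells. The shares were 11.1% and 5.56% against parental, beside 9.77% and 8.36% of all genes, and 22.2% and 5.56% against Ctrl cells, beside 15% and 14.2%. The 4 genes higher against both were DBF4, which activates the CDC7 kinase, the GINS subunit GINS4, and the clamp loader subunits RFC2 and RFC5, with log2 fold changes against parental cells of 0.36, 0.41, 0.41 and 0.25. The clamp loader subunit RFC4 fell, with log2 fold changes of -0.35 against parental and -0.70 against Ctrl cells, and so did the origin recognition subunit ORC5, with -0.33 and -0.29. As among the MCM subunits, subunits of one complex moved in opposite directions. The neighbours of RFC4 on chromosome 3 had a median of -0.50 against Ctrl cells and those of GINS4 on chromosome 8 had 0.52. In the same comparison those of DBF4 and RFC2 on chromosome 7 had 0.49 and 0.39, those of RFC5 4.29e-05 and those of ORC5 0.13.

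Of 37 other mitosis genes, 36 were tested, and 2 rose and 2 fell against parental cells and 5 rose and 1 fell against Ctrl cells. These shares of 5.56% and 5.56% against parental and 13.9% and 2.78% against Ctrl cells were below those of all genes, 9.77% and 8.36%, and 15% and 14.2%. The mitotic kinase PBK had 70.2, 72.1 and 79.5 CPM in parental, 64.8, 72.9 and 73.8 CPM in Ctrl and 106, 99 and 108 CPM in p53 KO cells, above all control libraries, and log2 fold changes of 0.50 and 0.56. The kinesin KIF2C was also higher against both controls, and ECT2, which directs cytokinesis, was lower against both. The neighbours of PBK on chromosome 8 had medians of 0.46 against parental and 0.47 against Ctrl cells. Those of ECT2 on chromosome 3 had -0.44 and -0.51, and those of KIF2C had 0.08 and 0.02. SMC4 was also lower against parental cells, and KIF15, ANLN and NCAPH were also higher against Ctrl cells. Without Ctrl 1, SMC4 was lower against Ctrl cells as well (log2 fold change -0.47, adjusted p = 0.000128 in edgeR). The changes of KIF15 and ANLN against Ctrl cells were 0.60 and 0.56 with Ctrl 1 and 0.44 and 0.34 without it. MKI67, the gene of the Ki-67 proliferation antigen, did not pass the test, with a log2 fold change of 0.04 (SE 0.22, adjusted p = 0.923) against parental and 0.40 (SE 0.22, adjusted p = 0.195) against Ctrl cells. Without Ctrl 1 the latter was 0.19 (adjusted p = 0.374).

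Of 27 other genes of G1 control, 26 were tested, and 1 rose (CDKN1A) and 2 fell (TFDP2 and CCND1) against parental cells, which is 3.85% and 7.69%, beside 9.77% and 8.36% of all genes. Against Ctrl cells 4 rose (CDK6, E2F7, CDKN1A and CHEK1) and 2 fell (TFDP2 and CHEK2), which is 15.4% and 7.69%, beside 15% and 14.2%. Between the controls 1 was higher in Ctrl cells (CDKN2D) and 5 were lower (CDK6, E2F3, E2F7, LIN52 and CDKN1A), which is 3.85% and 19.2%, beside 10.6% and 9.69%. TFDP2, a dimer partner of the E2F factors, had 21.6, 21.1 and 21.9 CPM in parental, 26.1, 25.6 and 25.4 CPM in Ctrl and 7.35, 5.86 and 6.65 CPM in p53 KO cells. All p53 KO libraries were far below the controls, with a log2 fold change of -1.70 (SE 0.095, adjusted p = 1.94e-06) against parental and -1.96 (SE 0.095, adjusted p = 2.15e-07) against Ctrl cells. It lies on chromosome 3, and its neighbours had medians of -0.40 and -0.42. Its paralogue TFDP1 did not pass the test. CDKN1A (p21) had 5.32, 4.54 and 5.63 CPM in parental cells, 3.88, 3.79 and 3.13 CPM in Ctrl cells and 7.55, 6.2 and 8.04 CPM in p53 KO cells. It was low in all groups and highest in the p53 KO libraries, with a log2 fold change of 0.49 (SE 0.14, adjusted p = 0.0313) against parental and 1.01 (SE 0.14, adjusted p = 0.000356) against Ctrl cells. CCND1, a D-type cyclin, had 935, 852 and 863 CPM, 644, 760.4 and 809 CPM and 637, 683 and 704 CPM in parental, Ctrl and p53 KO cells. Parental libraries were highest and Ctrl and p53 KO libraries overlapped, with a log2 fold change of -0.39 (SE 0.088, adjusted p = 0.0107) against parental and -0.13 (SE 0.088, adjusted p = 0.306) against Ctrl cells. CDK6 had 109, 76.7 and 95.6 CPM, 30, 60 and 68.7 CPM and 124, 125 and 99.2 CPM, with Ctrl 1 lowest, and a log2 fold change of 1.13 (SE 0.25, adjusted p = 0.00543) against Ctrl and 0.31 (SE 0.24, adjusted p = 0.418) against parental cells. Without Ctrl 1 the changes of CDK6 were 0.85 (SE 0.13, adjusted p = 0.000126) and 0.31 (SE 0.11, adjusted p = 0.0478), so that its change against Ctrl cells was under 2-fold and that against parental cells passed the test. CCND1 without Ctrl 1 also passed against Ctrl cells, with -0.22 (SE 0.065, adjusted p = 0.0163). The change of E2F7 against Ctrl cells was 0.61 with Ctrl 1 and 0.37 without it.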

How the data were processed

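RNA of A431 parental, Ctrl and p53 KO cells was measured in 3 strand-specific poly(A) libraries per group. The authors aligned paired-end reads with STAR 2.5.1b to GRCh38 and counted them with featureCounts on an Ensembl annotation. The deposited values are raw counts for 58051 genes. Whether counting used strand or multimapped reads is not given in the sources used here. The RNA level of the targeted gene is not reported here.

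The raw counts went into edgeR 4.0.16 (R 4.3.3). Genes passing filterByExpr (minimum count 10) were normalised by TMM and fitted with 1 mean per group over all 9 libraries, and groups were compared by its quasi-likelihood test. The p-values of all 14513 genes tested were adjusted by the Benjamini-Hochberg method. The comparison of p53 KO with parental cells was also run on simulated counts, which held no length trend and no library that stood apart. A gene was called at an adjusted p of at most 0.05. The alternatives were DESeq2 1.42.0, DESeq2 size factors, library totals, no filter or a stricter one, only the compared groups, a replicate block and each library left out. CPM per kb used canonical transcript lengths from GENCODE 44.

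The genes and lists were chosen with earlier results of these data known. Values in every library were to be given for genes called the same way against both controls, the largest called change in each role group, the CDK inhibitors, CCND2, CCND3 and 10 set genes (CCNB1, CDK1, MCM2, PCNA, RRM2, E2F1, CCNE1, CCNE2, TOP2A and PLK1). Other genes were named after their values were seen, as were the neighbour and length comparisons and the 9p21 region.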

Additional observations from a re-analysis of the deposited data

How the results depend on the processing

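Counts of the 53 genes given here are those higher and lower at an adjusted p of at most 0.05, and the cause of a moved count was not tested. In p53 KO against parental cells, the 1 gene lower became 3 by DESeq2, 2 with DESeq2 size factors, 2 with library totals, 2 without the filter and 7 with only the compared groups in the fit. In Ctrl against parental cells, the 2 genes lower became 4 by DESeq2, 6 without the filter and 1 with only the compared groups, where the 7 genes higher became 2. The 1 gene lower against both controls became 2 by DESeq2, 2 with DESeq2 size factors, 2 with library totals, 0 without the filter and 4 with only the compared groups. With a 2-fold minimum all 8 counts were 0. Leaving out Ctrl 1 and p53 KO 3, an alternative added after seeing the data, gave 6 lower against parental, 6 lower in Ctrl against parental and 5 lower against both controls. Removing the length trend, also added, gave 4 lower against parental, 4 higher and 5 lower in Ctrl against parental, 3 lower against both, and medians of the log2 fold change of -0.0141 in p53 KO and -0.0386 in Ctrl against parental cells. With the CHR element at 5 letters the share of all promoters became 33.7%.

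With each library left out in turn, p53 KO against parental cells had 3 to 9 genes higher and 0 to 7 lower, p53 KO against Ctrl 8 to 14 and 5 to 9, the controls against each other 0 to 9 and 1 to 5, and both controls 2 to 8 and 0 to 6. The median log2 fold change ranged over 0.0131 to 0.0411, 0.0255 to 0.0588 and -0.0118 to 0.0247.

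Deviations from the mean of a group's 3 libraries did not pair libraries by replicate number. This check cannot exclude that a number marks a shared batch. Ctrl 1 and p53 KO 3, both low on long transcripts, correlated at 0.395. Deviations of same-numbered libraries correlated at -0.348 to 0.0409, and 0 of 9 libraries correlated best with their own number. With the replicate block, p53 KO against parental cells had 4 genes higher and 0 lower, p53 KO against Ctrl 8 and 6, the controls against each other 1 and 1, and both controls 3 and 0.

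Over 18 settings without a fold minimum, 36 calls gave 648 values, of which 508 kept their direction and call, 140 kept only the direction and 0 reversed.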
